A study of Mus musculus with 4 samples.

Results

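Elastic fibre genes were followed in the ureter of mice that lacked the microRNAs miR-143 and miR-145 and of wild type mice. The list held 10 genes for the proteins of elastic fibres and the enzymes that cross-link them: Mfap4, Mfap5, Mfap2, Eln, Fbn1, Fbln5, Fbln2, Emilin1, Lox and Loxl1. A gene was taken where a probe set carried its symbol and no other, with the brightest probe set standing for the gene. By this rule 9 of the 10 genes were measured, out of 19296 genes in all, each by 1 probe set, and Fbn1 was not analysed here. The knockout group held 2 male mice of the genotype miR-143/145-/-, aged 2.5 months, whose kidneys were hydronephrotic (swollen by retained urine). The wild type group held 2 male mice of the genotype miR-143/145+/+, aged 4.5 months, with normal kidneys. All were of a mixed 129Sv and C57BL6 strain background, and total RNA of each ureter was put on an array of its own. Genotype, age and kidney state changed together, so their parts in any difference cannot be told apart.

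Elastic fibres let the walls of hollow organs stretch and recoil. Tropoelastin, the soluble product of Eln, is deposited on a scaffold of fibrillin microfibrils, guided by fibulins and other binding proteins, and lysyl oxidases then cross-link it into an insoluble core. Most elastin is made during growth, and the fibre turns over slowly afterwards, so an RNA level does not report the amount of fibre in the wall. In the ureter, smooth muscle cells and fibroblasts are the cells to which these genes are mainly ascribed.

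The values are log2 expression values of the array, and a gene counted as above background where its mean lay over log2 6.58, the 95th percentile of olfactory receptor genes. All 9 measured members lay above that level on all 4 arrays. The medians of the arrays lay between 7.81 and 7.89, and with 2 arrays per genotype the precision of each difference is limited. The deleted genes fitted the labels. Mir145a read 4.60 and 5.02 in knockout ureters, against 8.28 and 8.42 in wild type ureters, at least 3.42-fold lower (limma, adjusted p = 0.00193). Mir143 read 6.48 and 6.53 in knockout ureters, against 7.64 and 7.85 in wild type ureters, at least 2.24-fold lower (adjusted p = 0.0148). Both were below background in the knockouts, so each fold is a bound, taken from the wild type mean to the background level.

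Of the 9 elastic fibre genes, 1 rose in knockout ureter and none fell, at an adjusted p of 0.05 in limma's moderated test over all genes. That gene was Mfap4, at 4.77-fold. Over all genes tested, 1.90% rose and 0.477% fell by the same test. With the arrays centred on their medians, 309 genes rose and 317 fell, in place of 367 and 92, so the overall excess of rises depended on the scaling; Mfap4 rose under both. Before adjustment, 3 members were higher and 0 lower at p under 0.05, against 12.7% and 13.8% of all genes. The median difference of the 9 members was 0.23 on the log2 scale, and without Mfap4 it was 0.22 over 8 genes, against -0.02 over all genes. All genes include those below background, while all 9 members lay above it. Over only the genes above background the median was 0.03, and 3.76% rose. Before adjustment, 16.3% of these were higher and 13.1% lower. With the level set at the 99th percentile of olfactory receptor genes, which all 9 members passed, the median was 0.07. There 4.85% rose, and 19% were higher and 10% lower before adjustment. All 9 members had a higher mean in knockout ureter, as had 47.1% of all genes, but Eln and Fbln2 turned negative when the arrays were centred on their medians or normalized again. Centring lowered the median over all genes as well, from -0.02 to -0.10, and normalizing again gave -0.01.

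**Figure D1:**
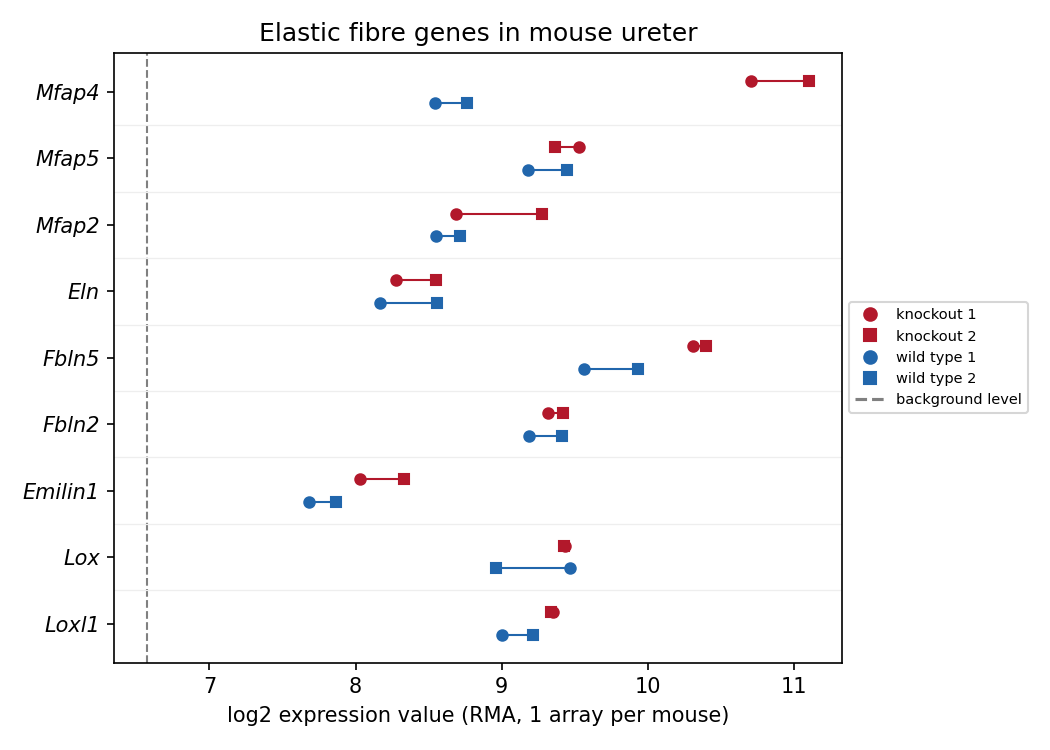
Log2 expression value of the 9 measured elastic fibre genes on each array, with knockout mice in red above wild type mice in blue, circles for replicate 1, squares for replicate 2, a line joining the mice of a genotype and a dashed line at the background level of 6.58. The knockout values of Mfap4, 10.71 and 11.10, lie far to the right of its wild type values, 8.55 and 8.76, while the points of Eln, Fbln2, Mfap5, Mfap2 and Lox overlap between genotypes.

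Among the microfibril-associated proteins, Mfap4, a fibrinogen-related glycoprotein that binds tropoelastin and fibrillin microfibrils, read 10.71 and 11.10 in knockout ureters, against 8.55 and 8.76 in wild type ureters. Both knockout mice thus lay above both wild type mice, and 1.95 separated the nearest values. The means were 10.91 ± 0.28 in knockout and 8.65 ± 0.15 in wild type ureter (SD, n = 2 each), a log2 difference of 2.25 (SE 0.16, 95% interval 1.87 to 2.64, limma adjusted p = 0.0111). Among 19296 genes this was the rise of rank 2, and the p was of rank 3. The difference ranged from 2.06 to 2.45 as each mouse was left out. The call held without either knockout mouse but was lost without wild type replicate 1 (adjusted p = 0.183) or wild type replicate 2 (adjusted p = 0.200). In each of those fits the lone wild type mouse was assumed to vary like the knockout pair, 0 of all genes passed, and 3 members were higher at an unadjusted p under 0.05, against 9.34% and 9.28% of all genes.

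Mfap2 and Mfap5 encode the small microfibril-associated glycoproteins, which bind fibrillin and are related to each other but not to Mfap4. Mfap2 read 8.68 and 9.28 in knockout ureters, against 8.55 and 8.71 in wild type ureters. The knockout mice differed from each other by 0.59, a gap larger than that of 97.1% of genes, and replicate 1 fell within the wild type range. The difference of 0.35 did not pass (95% interval -0.12 to 0.82, adjusted p = 0.298). Leaving out knockout replicate 1 gave 0.65, which passed (adjusted p = 0.0345), and leaving out knockout replicate 2 gave 0.05 (adjusted p = 0.908). In each of these fits the lone knockout mouse was assumed to vary like the wild type pair, and without knockout replicate 1 the genes that rose numbered 1115 over all genes, against 367 with all mice. For Mfap5 the values were 9.53 and 9.36 in knockout ureters, against 9.18 and 9.45 in wild type ureters. The genotypes overlapped, and the difference was 0.13 (95% interval -0.20 to 0.46, adjusted p = 0.585).

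Eln, the gene of elastin itself, read 8.27 and 8.55 in knockout ureters, against 8.17 and 8.56 in wild type ureters. Both knockout values lay within the range of the wild type values. The difference of 0.05 was smaller than the gap between mice of either genotype, which was 0.28 in knockout and 0.39 in wild type. Its 95% interval ran from -0.35 to 0.45 (limma adjusted p = 0.873), which ends below the interval of Mfap4; the difference between these genes was not tested. The sign was not settled, since the difference was -0.09 without knockout replicate 2 and -0.14 without wild type replicate 1.

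**Figure D2:**
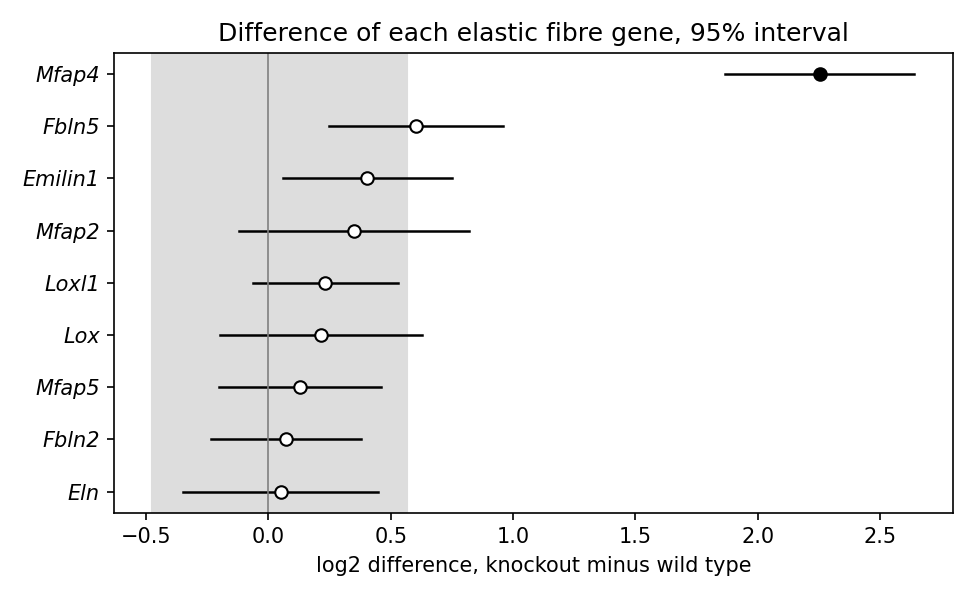
Log2 difference, knockout minus wild type, of each elastic fibre gene (points) with its 95% interval from the moderated fit (bars), in order of size. The filled point passed an adjusted p of 0.05, open points did not, and the grey band spans the 5th to the 95th percentile of all genes, -0.47 to 0.56; Mfap4 at 2.25 stands outside the band and Fbln5 at 0.60 just beyond its edge.

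Among the proteins that join elastin to cells and microfibrils, none passed. Fbln5, a fibulin that binds tropoelastin, integrins and Loxl1 and is needed for fibre assembly in mice, read 10.31 and 10.40 in knockout ureters, against 9.57 and 9.93 in wild type ureters. Both knockout values were the higher, but by 0.37 at the nearest, about the gap of 0.37 between the wild type mice. The difference of 0.60 did not pass (SE 0.15, 95% interval 0.25 to 0.96, limma adjusted p = 0.0750). Emilin1, a glycoprotein found between the elastin core and the microfibrils, read 8.03 and 8.33 in knockout ureters, against 7.68 and 7.86 in wild type ureters. Again the genotypes did not overlap, and the difference of 0.40 did not pass (95% interval 0.06 to 0.75, adjusted p = 0.140). Fbln2, a fibulin of microfibrils and basement membranes, read 9.32 and 9.42 in knockout ureters, against 9.19 and 9.41 in wild type ureters. Its genotypes overlapped, with a difference of 0.07 (95% interval -0.24 to 0.38, adjusted p = 0.761).

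RefSeq start sites (build GRCm38.p6) were held for 5 of the 10 list genes, and 7 stretches of sequence matched. Those of Fbln5 and Emilin1 are shown, since these are the members with an entry whose genotypes did not overlap. Each is the 150 bases before a start site, 5′ to 3′ on the strand of the gene, and capitals mark matches on either strand to GGGCGG, the core of the GC box, or CAGACA, a string that holds the core bound by SMAD proteins.
Fbln5, upstream start, chr12:101819120-101819269, minus strand: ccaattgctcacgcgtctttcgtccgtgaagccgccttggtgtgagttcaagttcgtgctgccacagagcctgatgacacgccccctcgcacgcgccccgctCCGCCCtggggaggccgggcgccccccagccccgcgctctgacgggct
Fbln5, downstream start, chr12:101818485-101818634, minus strand: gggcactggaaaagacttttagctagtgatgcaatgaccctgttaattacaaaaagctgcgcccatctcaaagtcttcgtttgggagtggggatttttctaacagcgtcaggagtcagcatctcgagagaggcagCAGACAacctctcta
Emilin1, chr5:30913636-30913785, plus strand: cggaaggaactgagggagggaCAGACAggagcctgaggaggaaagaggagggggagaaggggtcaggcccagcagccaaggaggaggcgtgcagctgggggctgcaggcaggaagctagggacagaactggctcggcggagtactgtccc

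The upstream Fbln5 stretch held GGGCGG once, read on the other strand, beginning 48 bases before the start, and its GC content was 70.0%. The downstream Fbln5 stretch held CAGACA 15 bases before the start, at a GC content of 47.3%, and the Emilin1 stretch held it 129 bases before the start, at 65.3%. Of 32851 stretches of the same length over all genes, 28.6% held GGGCGG and 10.3% held CAGACA. The TATA box core TATAAA was in 7.57% of them and in none of the 3 shown. The motifs share no bases here, and a match describes letters only.

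The lysyl oxidases oxidise lysines of elastin and collagen so that the chains cross-link. Lox read 9.43 on both knockout arrays, against 9.47 and 8.96 in wild type ureters. Wild type replicate 1 was the highest of the 4 and wild type replicate 2 the lowest, a gap larger than that of 97.2% of genes. The difference of 0.22 had a 95% interval of -0.20 to 0.63 (limma adjusted p = 0.460), and it was -0.04 without wild type replicate 2. Loxl1, which acts on elastin in adult mouse tissues, read 9.35 and 9.34 in knockout ureters, against 9.00 and 9.22 in wild type ureters. Both knockout values were higher, by 0.12 at the nearest, and the difference was 0.23 (95% interval -0.06 to 0.53, adjusted p = 0.276).

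In all, 4 of 9 members (Mfap4, Fbln5, Emilin1 and Loxl1) had both knockout values above both wild type values, against 28.0% of all genes. None had both below, against 32.0% of all genes. Both shares cover bright and dim genes alike and were not matched for intensity. Within genotypes, 6 of 9 members read higher in knockout replicate 2 than in knockout replicate 1, against 55.7% of all genes. Wild type replicate 2 read higher than wild type replicate 1 for 8 of 9, against 57.2% of all genes.

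**Figure D3:**
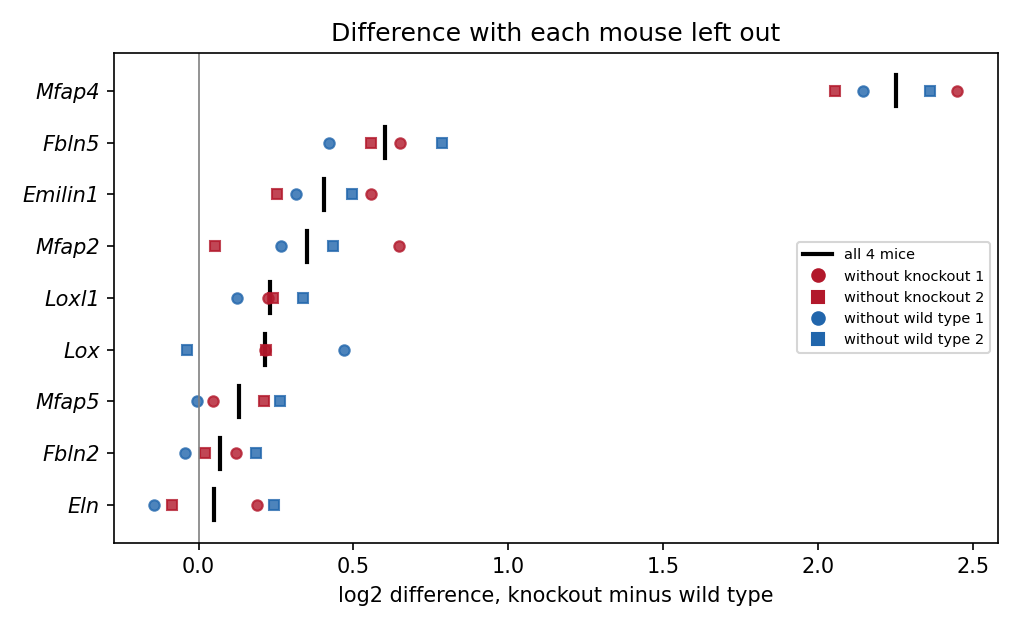
Log2 difference, knockout minus wild type, of each elastic fibre gene with all 4 mice (black bar) and with 1 mouse left out (red for a knockout mouse, blue for a wild type mouse, circle for replicate 1, square for replicate 2). Mfap4 stays between 2.06 and 2.45, Mfap2 moves between 0.05 and 0.65, and Mfap5, Fbln2, Lox and Eln reach values below 0.

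Further genes of elastic fibres and microfibrils were taken as a second list of 28, of which 26 were measured and above background. Thsd4, an ADAMTS-like protein that promotes fibrillin microfibril assembly in mice, rose 1.82-fold, and 25 did not pass; over all genes 1.90% rose, which is also the share to set beside the next lists. It read 8.91 and 8.88 in knockout ureters, against 7.91 and 8.16 in wild type ureters (log2 difference 0.86, SE 0.13, limma adjusted p = 0.0353). The call ended when the arrays were quantile normalized once more (difference 0.75, limma adjusted p = 0.0532). In that fit 155 genes rose and 49 fell over all genes, in place of 367 and 92. The call of Thsd4 was also lost without wild type replicate 1 (difference 0.73) or wild type replicate 2 (difference 0.99). Before adjustment, 9 of 26 were higher and 2 lower at p under 0.05, against 12.7% and 13.8% of all genes. In a fit of only the genes above background, those shares were 16.3% and 13.1%. The median of the list was 0.13, against -0.02 over all genes and 0.03 over the genes above background.

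The next genes by p lay at the threshold. Vcan, a large proteoglycan that binds fibrillin, read 10.46 and 10.80 in knockout ureters, against 9.06 and 9.76 in wild type ureters, and its difference of 1.22 did not pass (adjusted p = 0.0503). Fbln1, a fibulin found within elastic fibres, read 11.60 and 11.89 in knockout ureters, against 10.84 and 11.10 in wild type ureters (difference 0.77). Bgn, a small proteoglycan that binds tropoelastin, read 12.77 and 12.85 in knockout ureters, against 12.05 and 12.27 in wild type ureters (difference 0.65). Neither of these passed, at an adjusted p of 0.0521 for each. With only genes above background tested, Vcan (0.0446), Fbln1 (0.0450) and Bgn (0.0447) passed, and the list count was 4.

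Proteases that cut elastin and their inhibitors formed a list of 21, of which 18 were measured and 16 were above background. Ctsk, a cysteine protease that degrades elastin and collagen, rose 1.79-fold, and 17 did not pass. It read 7.81 and 8.13 in knockout ureters, against 7.12 and 7.13 in wild type ureters (log2 difference 0.84, SE 0.14, limma adjusted p = 0.0399). That call was lost without wild type replicate 1 (0.183) or wild type replicate 2 (0.229). Mmp2, a gelatinase that also cleaves elastin, read 10.76 and 11.09 in knockout ureters, against 9.76 and 10.26 in wild type ureters, and did not pass (difference 0.91, adjusted p = 0.0586). The neutrophil serine proteases had lower means in knockout ureter and did not pass. Elane, neutrophil elastase, differed by -0.46 (adjusted p = 0.0757), and Prtn3, proteinase 3, was below background in knockout ureter and at least 1.32-fold lower (adjusted p = 0.0732). Among the measured inhibitors, Timp2 (difference 0.44), Timp3 (0.33) and Timp1 (0.30) had higher means in knockout ureter. Timp4 (-0.51), Cst3 (-0.05) and Slpi (-0.04) had lower means, and no inhibitor passed. The median of the list was 0.01. Before adjustment 4 of 18 genes were higher and 3 lower at p under 0.05, against 12.7% and 13.8% of all genes. The 4 included Timp1 and Timp2.

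Fibrillar collagens, the stiff partners of elastic fibres in the wall, were measured for all 11 genes of their list. Both chains of type I collagen rose, and 9 genes did not pass. Col1a1 read 10.67 and 11.01 in knockout ureters, against 9.74 and 10.03 in wild type ureters (1.94-fold, limma adjusted p = 0.0416). Col1a2 read 10.46 and 10.74 in knockout ureters, against 9.73 and 9.88 in wild type ureters (1.73-fold, adjusted p = 0.0454). Col2a1, the cartilage collagen, differed by -0.52 (adjusted p = 0.0688) and Col5a3, a chain of type V collagen, by -0.35 (adjusted p = 0.125), and neither passed. Of the 11 genes 3 had a higher and 8 a lower mean in knockout ureter, with a median of -0.23. All 8 had both knockout values below both wild type values, against 32.0% of all genes. That share covers bright and dim genes alike and was not matched for intensity. The lower quartiles of the probe sets were 6.26 and 6.27 in knockout, against 6.36 and 6.45 in wild type ureters. At an unadjusted p under 0.05 the list held 3 higher and 3 lower genes, against 12.7% and 13.8% of all genes. Both calls ended when the arrays were quantile normalized once more (limma adjusted p = 0.0641 and 0.0643). There the log2 differences were 0.89 for Col1a1 and 0.72 for Col1a2, against 0.96 and 0.79. Over all genes 155 then rose and 49 fell, in place of 367 and 92. Both calls were also lost without either wild type mouse, and that of Col1a2 without knockout replicate 2. Across the alternatives Col1a1 ranged from 0.79 to 1.13 and Col1a2 from 0.65 to 0.93.

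**Figure D4:**
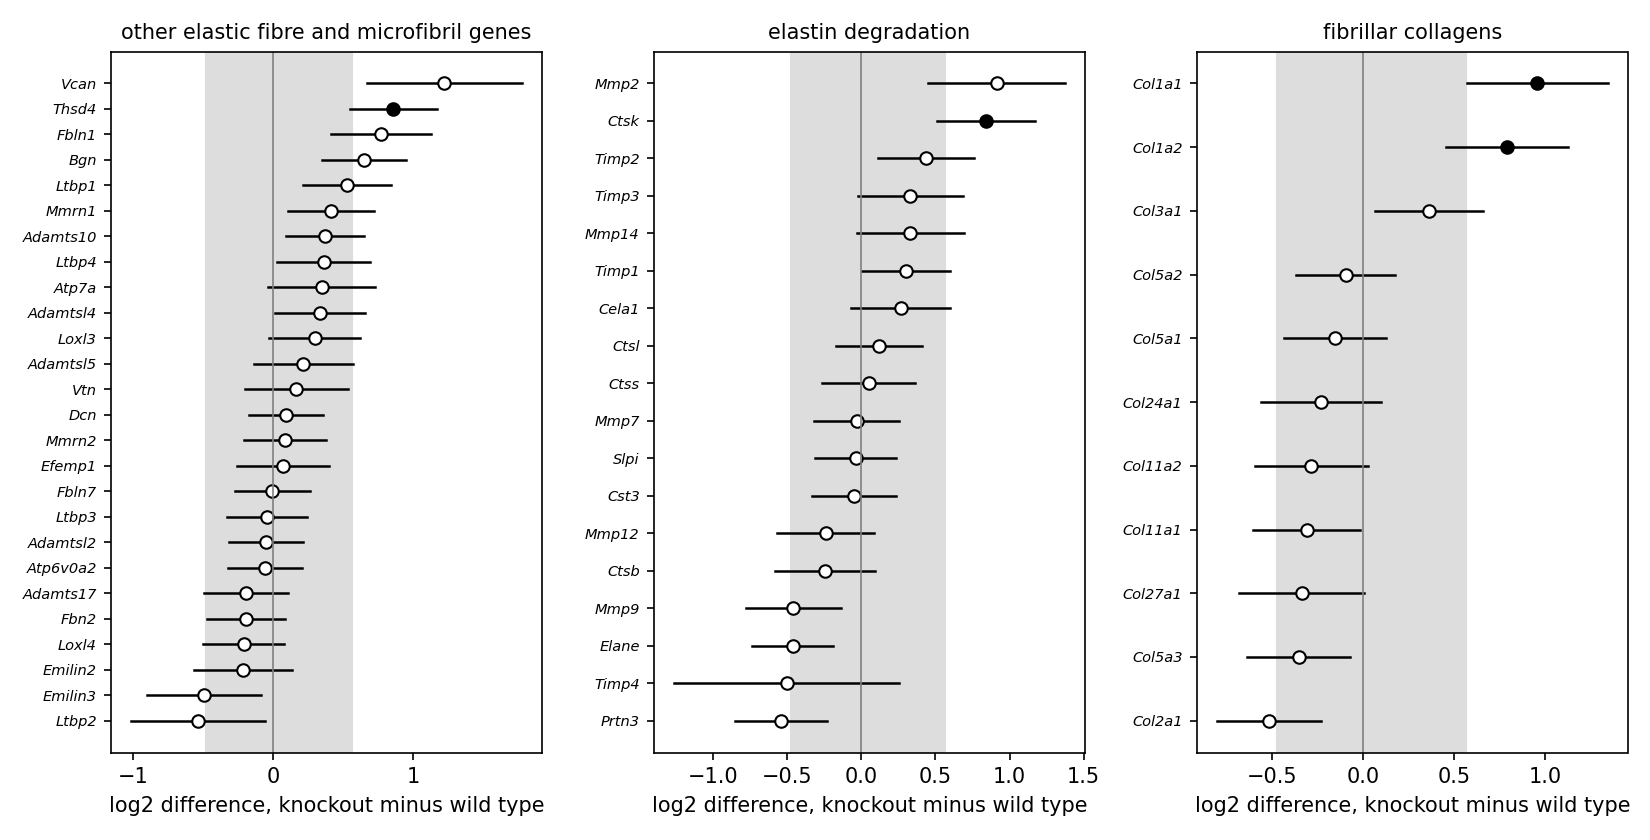
Log2 difference, knockout minus wild type, with 95% intervals for the measured genes of the lists of other elastic fibre and microfibril genes, of elastin degradation and of fibrillar collagens, each in order of size. Filled points (Thsd4, Ctsk, Col1a1 and Col1a2) passed an adjusted p of 0.05, open points did not, and the grey band spans the 5th to the 95th percentile of all genes.

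Marker lists of the cell types a ureter sample could hold were read beside these genes, and most markers did not pass. In bulk tissue a change in the number of cells of a type and a change in RNA per cell cannot be told apart. Over all genes 47.1% were higher in knockout ureter and 1.90% rose, the shares to set beside these lists. Of 10 smooth muscle markers 8 were higher in knockout ureter and none passed, with list means of 11.56 and 11.38 in knockout against 11.33 and 11.25 in wild type ureters. Of 10 fibroblast markers 8 were higher and 3 rose, with means of 11.16 and 11.23 in knockout against 10.70 and 10.75 in wild type ureters; the 3 were Lum, Col1a1 and Col1a2, which are matrix genes themselves. Pdgfra, a fibroblast receptor that is not a matrix gene, differed by 0.51 (limma adjusted p = 0.0658). Dpt differed by 0.46, Pi16 by 0.32, Cd34 by 0.26 and Dcn by 0.09, while Clec3b differed by -0.09 and Dpep1 by -0.34. None of these passed. All smooth muscle and fibroblast markers were above background, as the labelled tissue requires, and so were the 10 urothelium markers. Urothelium means were 11.91 and 12.27 in knockout against 11.33 and 11.60 in wild type ureters, with a median difference of 0.65. All 10 had both knockout values above both wild type values, against 28.0% of all genes, and 1, Trp63, rose. The same held for 8 of 10 smooth muscle and 8 of 10 fibroblast markers, with 1 of each list below instead. The 9 adipocyte markers measured were lower without passing, at means of 12.45 and 11.93 in knockout against 12.76 and 12.65 in wild type ureters. Of these, 8 had both knockout values below both wild type values, against 32.0% of all genes.

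Kidney tubule markers differed between the mice within each genotype, with means of 8.74 and 6.69 in knockout and 6.48 and 7.32 in wild type ureters. They were highest in knockout replicate 1. Without that mouse the difference of Mfap4 was 2.45, with wild type replicate 2, whose tubule mean was 7.32, still in the fit. The part of kidney tissue in this difference was not tested. Markers of endothelium (8 measured), macrophages (8) and nerve (5) had list medians of -0.09, -0.13 and -0.23, and none passed. The part of cell composition in the differences of the elastic fibre genes was not tested.

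**Figure D5:**
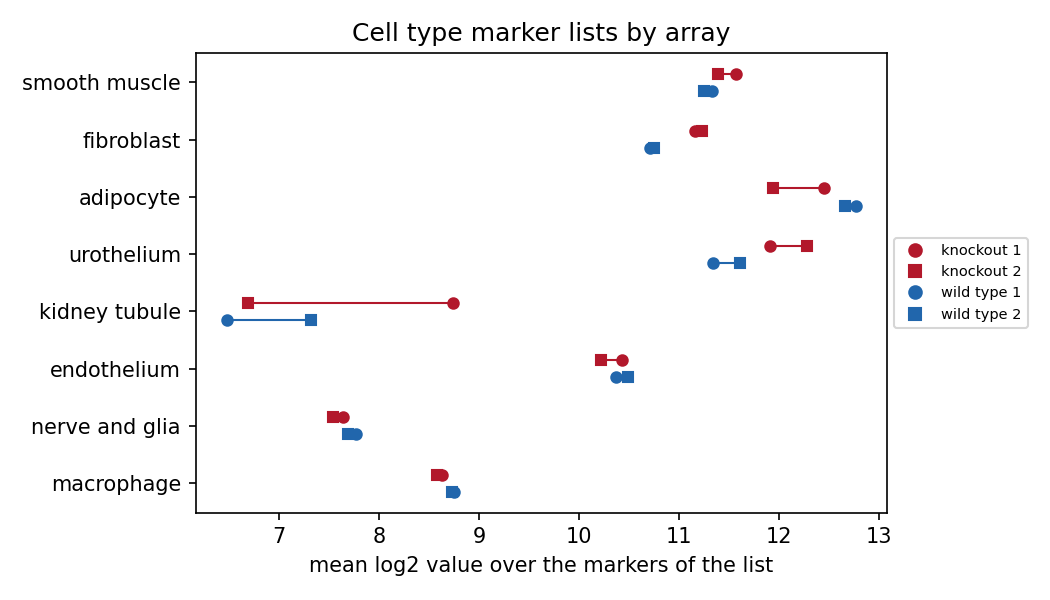
Mean log2 value over the measured markers of each cell type on each array, with knockout mice in red above wild type mice in blue, circles for replicate 1 and squares for replicate 2. Smooth muscle, fibroblast and urothelium means lie higher, and adipocyte, macrophage and nerve means lower, in both knockout mice than in both wild type mice. Endothelium means overlap between genotypes. The kidney tubule mean of knockout replicate 1 (8.74) stands apart from the others (6.48 to 7.32).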

How the data were processed

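The deposited values are log2 expression values, 1 per probe set and mouse, from 500 ng of total RNA on a whole-transcript array, per the labels' protocols. The submitters' processing notes list R 2.15.0, RMA and limma 3.12.1. RMA is meant to equalise the distributions of arrays, which shrinks any change that most genes have in common. The deposited values still differed between arrays, with medians from 7.81 to 7.89 and lower quartiles from 6.26 to 6.45. No genome build of the probe sets was stated per the labels. Of 23309 probe sets 20728 had 1 symbol, which left 19296 genes.

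The genotypes were compared with limma 3.58.1 under R 4.3.3 (lmFit and eBayes), without covariates and with Benjamini-Hochberg adjustment over all genes; the 95% intervals are those of single genes. An exact permutation test of 2 against 2 mice cannot go below p = 0.333. The test was checked only on simulated data that follow its own variance model, with independent errors. Such data cannot speak to the confounding of genotype with age and kidney state. The members and lists were chosen with earlier results of these data known. Named genes were all members and, in each other list, those that passed, filled up to 4 by smallest p among genes above background. The measured inhibitors of the elastin degradation list were named as well. Alternatives were other scalings, probe set rules, filters, variance models, thresholds, a replicate block and leaving out each mouse.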

Additional observations from a re-analysis of the deposited data

How the results depend on the processing

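The rise of Mfap4 passed under 12 of 15 alternatives. It failed without either wild type mouse and without pooling of the variance between genes (adjusted p = 0.345), where 0 genes of any list rose and Mir143 (-1.23) and Mir145a (-3.54) lost their calls too; there 1 member was higher at an unadjusted p under 0.05. No member fell under any of 16 alternatives. Left-out mice gave 0 to 2 elastic fibre genes, 0 to 4 other microfibril genes, 0 to 2 elastin degradation genes and 0 to 2 collagens that rose, and 0 to 1 microfibril and 0 to 2 degradation genes that fell. Over all genes the left-out mice gave 0 to 1115 that rose and 0 to 629 that fell, against 367 and 92, with the highest counts without knockout replicate 1. Mir143 then ranged from -1.34 to -1.13 and Mir145a from -3.75 to -3.33, and both lost their calls without either wild type mouse.

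Eln was -0.070 with a further quantile normalization and -0.028 with centred arrays, and Fbln2 was -0.038 and -0.0085. The median over all genes was -0.015 and -0.099 in these settings. With a mouse left out, Eln ranged from -0.14 to 0.24, Fbln2 from -0.043 to 0.18, Mfap5 from -0.0054 to 0.26 and Lox from -0.036 to 0.47, with all the lowest values without wild type replicate 1 except that of Lox, which was without wild type replicate 2; without knockout replicate 2 Eln was -0.087. The cause was not tested.

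The count of other microfibril genes that rose, 1 in the report, was 0 with a further quantile normalization, 2 with centred arrays or the mean of probe sets, 3 with an intensity trend, and 4 with robust eBayes or either filter on dim genes, which tests fewer genes. The share of all genes that rose, 1.90% in the report, moved as well. It was 0.803% with the further normalization, 1.6% with centred arrays and 2.03% with the mean of probe sets. An intensity trend gave 2.2%, robust eBayes 3.39%, and the filters 3.76% and 4.85% of the genes kept. The count of collagens that rose, 2 in the report, was 0 with a further quantile normalization and 1 with all probe sets tested, and 1 collagen fell with centred arrays. With all probe sets tested 1.33% of all genes rose. With centred arrays 1.64% of all genes fell, against 0.477% in the report. Robust eBayes gave 2 degradation genes that rose. At an adjusted p of 0.1, 2 members, 5 other microfibril genes and 2 degradation genes rose, and 3 degradation genes and 1 collagen fell; over all genes 1317 (6.83%) rose and 982 (5.09%) fell.

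The replicate numbers did not pair the mice: with 2 pairs, deviations of same-numbered mice from their genotype means correlated at -0.03 across genes. With a replicate block 2 members rose, Mfap4 and Fbln5 (adjusted p = 0.0305), with 4 other microfibril and 2 degradation genes; 1 microfibril gene, 1 degradation gene and 1 collagen fell. Over all genes 1164 rose and 758 fell, against 367 and 92.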
